A study of Daphnia magna with 48 samples.

Results

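Copper and arsenic were set against each other in Daphnia magna, a freshwater water flea, after 4 days of exposure. The comparison used 4 copper libraries and 4 arsenic libraries of day 4, chosen by their labels, out of 48 libraries in the series. The 4 mixture libraries (copper plus arsenic) and the 4 unexposed control libraries of the same day were read beside them, to see on which side of the controls each gene lay. The animals belonged to a field population, lived in M4 medium, an artificial freshwater, under a fixed light-dark cycle and were fed each day, in every group. RNA came from whole bodies. The sources used here do not give age, sex, clone, metal concentrations, the chemical form of either metal or how many animals made up a library. They also do not say whether replicates were separate cultures, so each p-value here reflects the scatter of libraries, part or all of which may be technical.

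Copper is a trace element that animals need as a cofactor of redox enzymes, and that becomes toxic when free ions exceed what storage and export proteins can bind. In animals excess copper is known to induce metallothioneins, small cysteine-rich proteins that bind metal ions. Arsenic has no such established need. Arsenate resembles phosphate and can take its place in metabolism, and arsenite binds thiol groups of proteins. Whether genes of these systems moved could not be read here, because the 16066 gene identifiers of the table, all of a Daphnia magna gene set, matched 0 entries of the reference gene table (assembly ASM2063170v1.1). Genes therefore carry no name, function or location. The pair with the strongest evidence is given by identifier, and other genes are numbered by their rank of p in copper against arsenic on day 4.

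The 8 copper and arsenic libraries had total counts (in units of 1000000) of 12.3 to 15.7 for copper and 11.4 to 17.4 for arsenic. Mixture libraries had 8.84 to 15.6 and controls 11.8 to 15.8 in the same units. Across genes, library pairs within copper had Pearson's r of 0.977 to 0.981 and those within arsenic 0.970 to 0.977, and copper with arsenic pairs had 0.962 to 0.980 (log2 CPM; these pairs share the same genes and are a description). These ranges overlap. An earlier look at these data set 3 libraries of day 4 apart (control replicates 1 and 4 and mixture replicate 1). None of them is a copper or arsenic library. Their r with the other day-4 libraries, 0.955 to 0.982, lay within the range of the remaining pairs, 0.954 to 0.984. No criterion for setting them apart is given here. Fits without them hold fewer control and mixture libraries, and whether this changed the number of calls was not tested.

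On day 4, 12 of 15813 tested genes differed between copper and arsenic, all 12 higher with copper (edgeR quasi-likelihood test, adjusted p under 0.05; percent called 0.0759). In this fit edgeR called 0 genes as higher with arsenic. Fitted to the day-4 libraries alone it called 34 higher and 5 lower with copper, and fitted to the 8 copper and arsenic libraries alone 43 higher and 8 lower. Before adjustment (p under 0.05) the split was 732 genes higher (4.63%) and 594 lower (3.76%) with copper, and with DESeq2 the adjusted calls were 27 higher and 0 lower. The called differences ran from 1.502-fold to 16.3-fold, with a median log2 fold change of 1.82, against −0.01 over all genes tested. Since these 12 genes were picked by this contrast, that median describes them and tests nothing. In whole bodies, fewer cells of a type and less RNA per cell cannot be told apart.

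**Figure D1:**
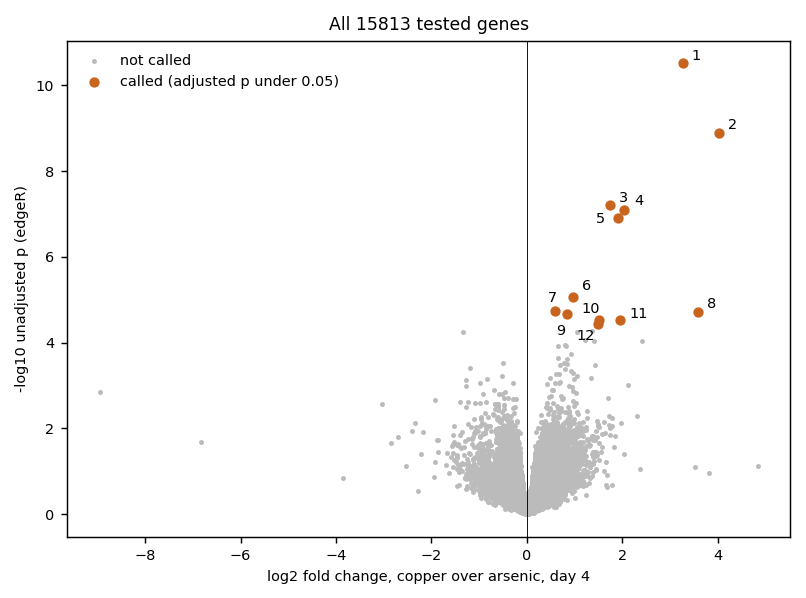
Log2 fold change of copper over arsenic on day 4 (x axis) against −log10 of the unadjusted edgeR p (y axis) for 15813 tested genes. The 12 called genes, numbered by rank of p, all lie on the right, where copper is higher; genes 1 and 2 stand above the others.

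Gene 1 is Dapma7bEVm028938t1. It had 53.4, 39.8, 48.5 and 56.0 CPM (counts per 1000000, scaled by the TMM method) in copper replicates 1 to 4, against 2.13, 9.01, 5.90 and 3.34 CPM in arsenic replicates 1 to 4. The lowest copper library was thus above the highest arsenic library by a wide margin. The mixture libraries had 27.6, 23.6, 31.3 and 33.8 CPM, and the controls 3.75, 5.33, 8.998 and 6.69 CPM. Arsenic and control libraries overlapped, and the mixture libraries filled the gap between them and copper without touching either. The fitted difference of copper over arsenic was 9.63-fold (log2 fold change 3.27, SE 0.36, adjusted p 4.81e-07; 95% interval of the fold 5.79 to 16.0).

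Gene 2 is Dapma7bEVm015179t1. It had 47.3, 44.8, 47.0 and 52.8 CPM in the copper libraries, against 2.63, 4.86, 2.24 and 1.89 CPM in the arsenic libraries. The mixture libraries had 13.4, 21.3, 29.1 and 29.9 CPM, and the controls 2.94, 4.91, 5.36 and 4.87 CPM. As for gene 1, the mixture lay between copper and the other groups in each of its 4 libraries, here with a wider spread. The fitted difference of copper over arsenic was 16.3-fold (log2 fold change 4.03, SE 0.52, adjusted p 1.02e-05), with a 95% interval of the fold of 7.90 to 33.6.

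Genes 3, 4 and 5 formed the next group by evidence. Gene 3 had 90.1, 108, 126 and 127 CPM with copper, against 45.3, 37.7, 27.4 and 24.8 CPM with arsenic. Gene 4 had 186, 207, 231 and 233 CPM with copper, against 53.2, 75.1, 41.2 and 41.1 CPM with arsenic. Gene 5 had 151, 168, 151 and 204 CPM with copper, against 42.0, 57.9, 49.3 and 31.0 CPM with arsenic. In each of the 3 genes no arsenic library reached even the lowest copper library (4.7% of all tested genes), as their choice favours. Their fitted differences were 3.33-fold (log2 fold change 1.74, SE 0.26), 4.06-fold (2.02, SE 0.31) and 3.73-fold (1.90, SE 0.30), with adjusted p of 0.000319, 0.000319 and 0.000388.

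For these 3 genes the arsenic mean was below the control mean, with overlapping libraries. Gene 3 averaged 113 ± 17.4 CPM with copper, 33.8 ± 9.47 CPM with arsenic, 87.8 ± 9.26 CPM in the mixture and 55.6 ± 9.65 CPM in controls (SD, n = 4 each). Gene 4 averaged 214 ± 22.6, 52.6 ± 16.0, 148 ± 30.7 and 86.4 ± 20.8 CPM in copper, arsenic, mixture and control libraries. For gene 5 the means of those groups were 168 ± 24.9, 45.1 ± 11.4, 109 ± 20.7 and 64.8 ± 20.3 CPM. Arsenic against control did not pass the test over all genes for any of them, with log2 fold changes against control of −0.72, −0.71 and −0.52 (SE 0.26, 0.30 and 0.29; adjusted p 0.578, 0.586 and 0.626).

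**Figure D2:**
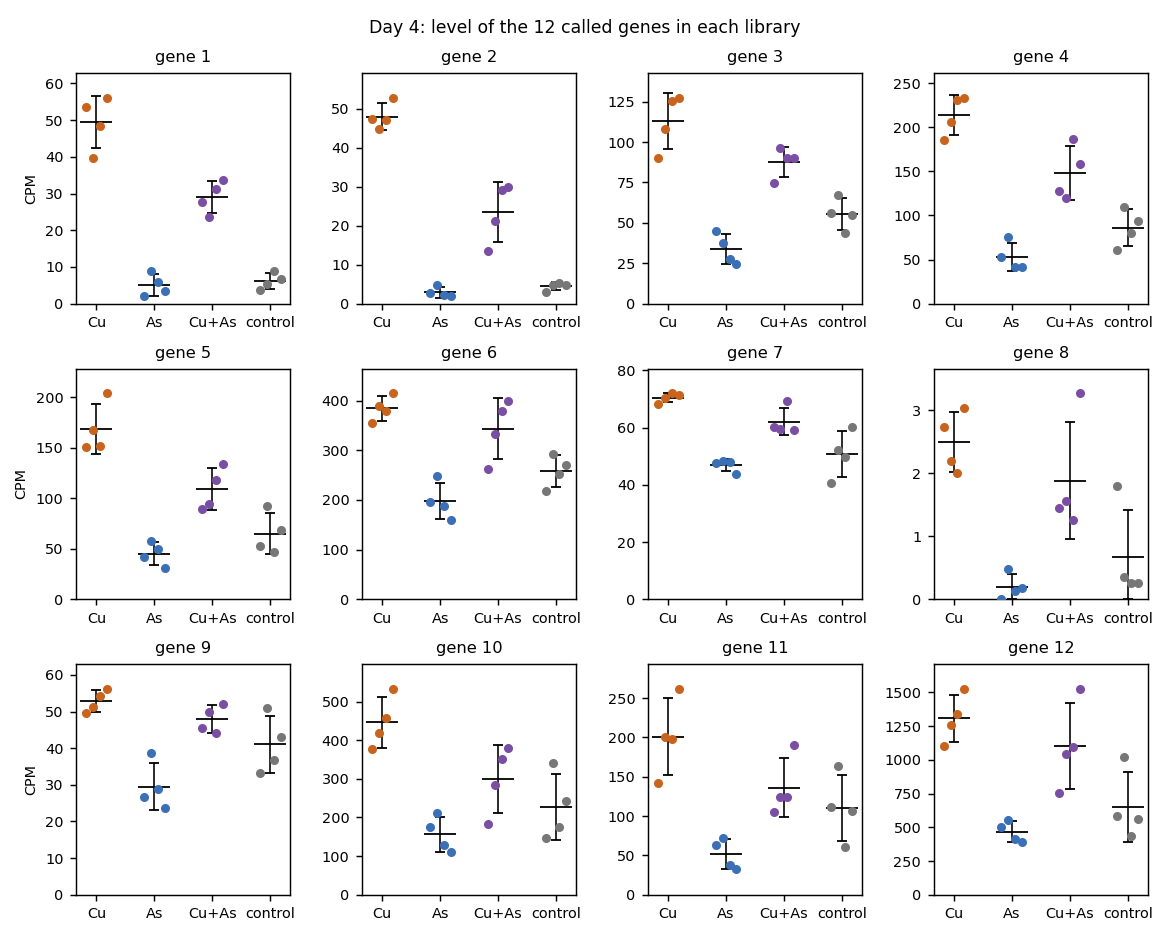
CPM (y axis, from 0) of the 12 called genes in each day-4 library, with copper, arsenic, mixture (Cu+As) and control from left to right. Points are libraries, and bars give the mean and SD of 4, cut at 0 where the SD exceeds the mean (gene 8, arsenic and control). The copper points lie above the arsenic points in all 12 panels, as they do for 4.7% of all tested genes.

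The other 7 called genes (6 to 12) had adjusted p between 0.0231 and 0.0476. Gene 7 differed least in size. It had 68.4, 70.2, 71.9 and 71.4 CPM with copper, against 47.8, 48.2, 47.8 and 43.8 CPM with arsenic. Both groups were tight, and the 1.502-fold difference (log2 fold change 0.59, SE 0.12, adjusted p 0.0369) was larger than the range of either. Its mixture libraries, at 59.3 to 69.2 CPM, lay above all arsenic libraries and reached the copper range, and its controls, at 40.8 to 60.3 CPM, spanned the arsenic range. Gene 6 had 355 to 414 CPM with copper and 160 to 247 CPM with arsenic, and gene 9 had 49.7 to 56.2 CPM with copper and 23.8 to 38.8 CPM with arsenic. Their differences were 1.95-fold and 1.79-fold.

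Gene 8 rested on few counts. Its reads numbered 42, 29, 23 and 44 in copper libraries and 0, 8, 2 and 2 in arsenic libraries. In CPM it stood at 2.50 ± 0.479 with copper, 0.195 ± 0.200 with arsenic, 1.89 ± 0.931 in the mixture and 0.665 ± 0.754 in controls (SD, n = 4 each). A count of 0 in these day-4 libraries allows up to 0.173 to 0.339 CPM (3 counts, counting error only), so the arsenic level was close to what could be detected. The fitted 12.01-fold difference had a 95% interval of 4.25 to 33.9 (log2 fold change 3.59, SE 0.74, adjusted p 0.0369), and its size is poorly fixed.

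Genes 10, 11 and 12 were higher with copper by 2.86-fold, 3.89-fold and 2.80-fold (adjusted p 0.0427, 0.0427 and 0.0476). Gene 10 had 377 to 533 CPM with copper and 109 to 212 CPM with arsenic. Gene 11 had 142 to 262 CPM with copper and 32.3 to 72.5 CPM with arsenic. Gene 12 had 1103 to 1526 CPM with copper and 392 to 556 CPM with arsenic. None of the 3 showed overlap between the metals (4.7% of all tested genes had copper wholly above arsenic), as their choice favours. In all 3 the controls spread widely, with control replicate 2 highest at 340, 164 and 1022 CPM.

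The 12 genes largely shared their order of libraries within a group. Arsenic replicate 2 was the highest arsenic library for 11 of the 12 genes, and arsenic replicate 4 the lowest for 10. Copper replicate 4 was the highest copper library for 11 and copper replicate 1 the lowest for 9. Over all tested genes those libraries held these places for 25.03%, 26.9%, 24.7% and 26.4% of genes. These libraries thus held the extreme places more often among the 12 genes than over the table. For copper and arsenic this describes genes chosen on the same libraries. Mixture and control libraries did not choose the genes. Mixture replicate 4 was highest of its group for 9 genes (26.3% of all tested genes) and replicate 1 lowest for 7 (30.3%). Control replicate 2 was highest of its group for 8 (26.4%) and replicate 1 lowest for 7 (28.9%). The 12 genes thus tended to move together, and counts over them below are not counts of separate results. Whether depth had a part in this shared order was not tested. Arsenic replicate 2 had the highest total of its group (17.4 in units of 1000000) and replicate 4 the lowest (11.4), and copper replicates 1 and 4 had 15.7 and 15.6.

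The calls differed in how they held when libraries were left out. Genes 1 to 5 passed the threshold under all 18 other settings tried. Genes 6 to 12 missed it in 6 to 11 of their settings (8 of 17 for gene 8), with highest adjusted p between 0.251 and 0.394, though their log2 fold changes kept their sign. Without copper replicate 1 edgeR called 6 genes, without copper replicate 2, 3 or 4 it called 5, without arsenic replicate 1 it called 6, and without arsenic replicate 3 or 4 it called 5. Without arsenic replicate 2 the number was 18, with 17 higher and 1 lower.

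**Figure D3:**
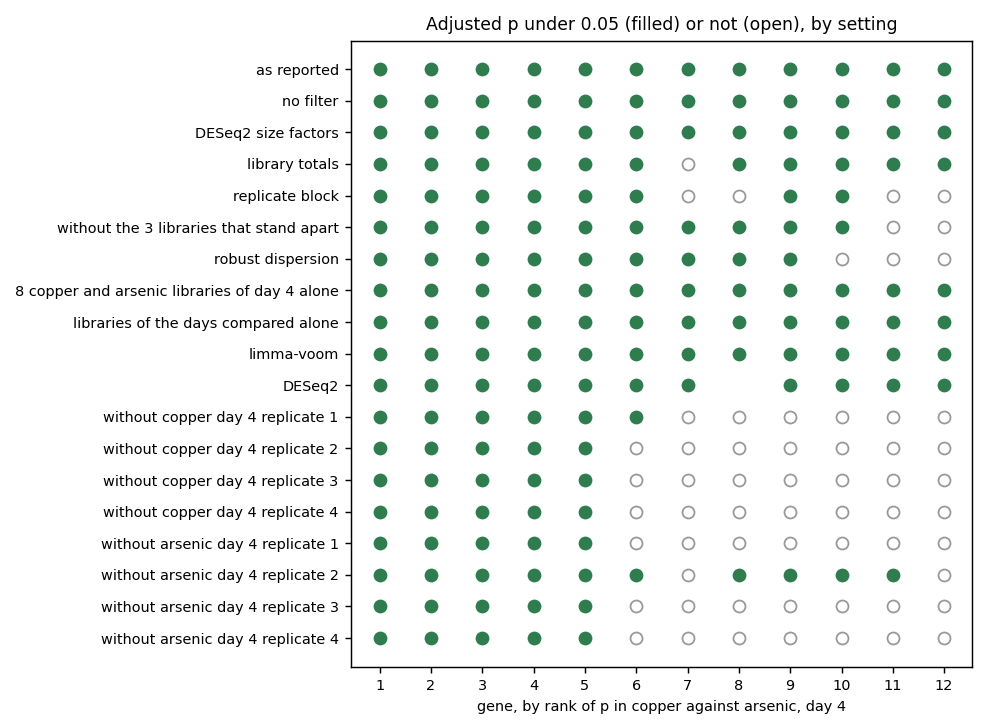
Whether each of the 12 genes (x axis, by rank of p) had an adjusted p under 0.05 (filled) or not (open) in copper against arsenic on day 4, as reported and under 18 other settings (y axis). Genes 1 to 5 are filled in every line, and the open circles of genes 6 to 12 lie mostly in the lines that leave out 1 library; the gap marks gene 8 under DESeq2, which gave it no adjusted p.

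The genes just past the threshold were also mostly higher with copper. Of ranks 13 to 17, 4 were higher with copper, by 2.07-fold to 2.66-fold, with adjusted p of 0.0596 to 0.0825. Rank 14 was lower with copper and rested on few counts. Its reads numbered 15, 6, 17 and 18 in copper libraries and 51, 28, 47 and 29 in arsenic libraries. Its copper libraries had 0.978, 0.455, 1.48 and 1.25 CPM, against 3.19, 1.66, 3.19 and 2.49 CPM with arsenic (log2 fold change −1.34, SE 0.30, adjusted p 0.0596). Its mixture libraries had 1.67 to 2.30 CPM and its controls 1.74 to 3.59 CPM. Copper was the group that stood apart for this gene, and against control it passed the test (log2 fold change −1.39, SE 0.30, adjusted p 0.0497). That call was lost with limma-voom, in the day-4 libraries alone and without the 3 libraries set apart, each of which called 0 genes lower than control. Against arsenic it passed without arsenic replicate 2 (adjusted p 0.0256) and with library totals as the scaling (adjusted p 0.0444). The other leading genes with higher arsenic, at ranks 26 and 30, had adjusted p of 0.182 and 0.204.

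Counting libraries without a model gave a similar split over the whole table. All 4 copper libraries exceeded all 4 arsenic libraries for 744 genes (percent called 4.7), and the reverse held for 540 genes (3.41). On day 1 the same counts were 137 (0.866%) and 119 (0.753%), and on day 2 they were 171 (1.08%) and 145 (0.917%). Day 4 thus had several times as many genes whose metals did not overlap as the earlier days. On day 4 no tested gene was detected throughout one metal and absent from the counts of the other. Only 1 tested gene had no count in any arsenic library, and it lacked a count in some copper library. Of the 2 with no count in any copper library, 0 had a count in every arsenic library. The 253 genes that did not pass the filter were not looked at, so these counts say little about absence.

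Controls and mixture were read to see on which side of control the 12 genes lay. The copper and arsenic libraries chose these genes, so comparisons that use either of them describe the genes and do not test them again. Against control, copper was higher for 12 of 12 genes (49.4% of all tested genes), and genes 1, 2 and 5 passed the test (percent called 0.019 in that direction). Their fitted rises over control were 7.99-fold, 10.6-fold and 2.59-fold (log2 fold changes 2.999, 3.40 and 1.38; adjusted p 3.75e-06, 0.000253 and 0.0466). All 4 copper libraries exceeded all 4 controls for 10 of the 12 genes, all but genes 9 and 11 (percent called 1.48). Leaving out any 1 copper library, or control replicate 1, 3 or 4, left 2 of the 12 past the copper-control threshold, and leaving out the 3 libraries set apart left 1 gene in the whole table. Arsenic was below control in fitted level for 12 of 12 genes (49.4% of all tested genes). None of the 12 passed that test (percent called 0.0632 for falls), 6 had an unadjusted p under 0.05 (4.94%), and 0 had all controls above all arsenic libraries (2.33%). The median log2 fold change of the 12 was 1.01 for copper against control and −0.53 for arsenic against control. Both comparisons share the same 4 controls.

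The controls lay closer to arsenic for most of the genes. On the log2 scale (CPM plus 0.5), with the arsenic mean at 0% and the copper mean at 100%, the control mean stood at 11.01% for gene 1, 15.5% for gene 2 and 17.1% for gene 7. It stood at 26.4% to 41.9% for genes 3, 4, 5, 6, 8, 10 and 12. For genes 9 and 11 it stood at 55.6% and 54.6%, past the middle toward copper. In all, the control mean was nearer to arsenic than to copper for 10 of 12 genes, against 40.4% of all tested genes. It lay between the metals for 12 of 12 (38.7% of all genes), and the mixture mean lay between control and copper for 12 of 12 (32.3%). Choosing genes for a clear gap between the metals favours a control mean between them and a mixture mean below copper. Gene 11, with its control past the middle, averaged 201 ± 49.0 CPM with copper, 51.5 ± 19.2 CPM with arsenic, 136 ± 37.4 CPM in the mixture and 111 ± 41.9 CPM in controls (SD, n = 4 each).

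**Figure D4:**
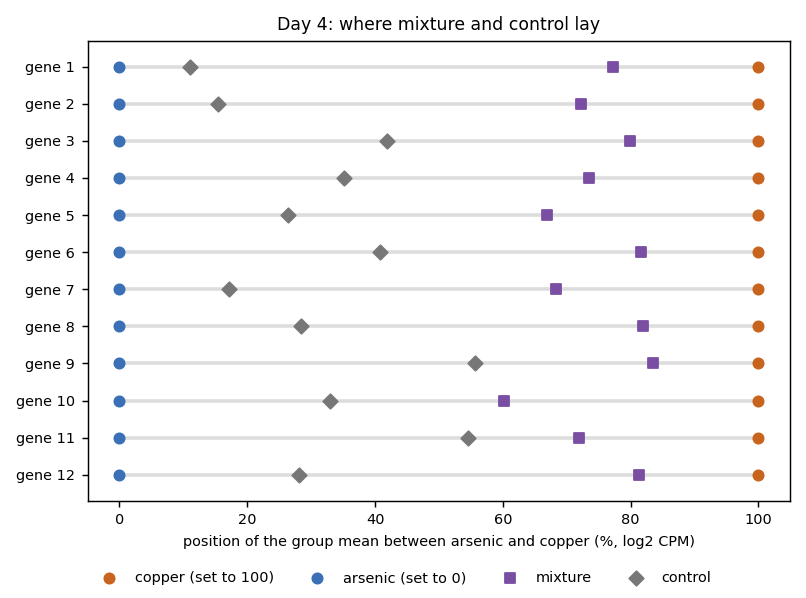
Position of the mixture and control means between the arsenic mean (set to 0%) and the copper mean (set to 100%) on the log2 CPM scale (x axis) for each of the 12 genes (y axis) on day 4. Mixture means stand at 60.2% to 83.5%, and control means at 11.01% to 55.6%, left of the mixture in every line.

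Mixture against control compares none of the 8 libraries that chose the genes, but its SE and p use each gene's spread over all 48 libraries, from the fit that chose the genes by their p. Its p-values are therefore not independent of the choice. The 12 genes also shared much of their order of mixture and control libraries, so counts over them are not 12 separate results. The mixture was higher for 12 of 12 genes, against 48.3% of all tested genes, with a median log2 fold change of 0.70 against −0.01 over all genes. Gene 1 passed the test (4.70-fold, log2 fold change 2.23, SE 0.35, adjusted p 0.00237; percent called 0.00632 in that direction), and gene 2 had 5.19-fold (2.37, SE 0.49, adjusted p 0.0528). At an unadjusted p under 0.05, 9 of the 12 were higher, against a percent called of 1.59. All 4 mixture libraries exceeded all 4 controls for genes 1, 2, 3 and 4 (percent called 1.01). The mixture means exceeded the control means for 12 of 12 genes (48.1% of all genes), with and without the 3 libraries set apart. Without those 3, or without control replicate 1 alone, edgeR called 0 genes in the table, gene 1 included, where 489 and 477 had p under 0.05 before adjustment.

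The mixture holds both metals, so it was also set against each metal alone. It exceeded arsenic in fitted level for 12 of 12 genes (48.9% of all genes), with genes 1, 2 and 3 passing the test (5.66-fold, 7.98-fold and 2.59-fold; adjusted p 0.000233, 0.00364 and 0.0259; percent called 0.019). Without arsenic replicate 3, or without arsenic replicate 4, 1 gene passed. All 4 mixture libraries exceeded all 4 arsenic libraries for 11 of the 12, all but gene 10 (percent called 2.71). The mixture was below copper for 12 of 12 genes (51.5% of all genes), at 0.490 to 0.908 of the copper level, and none passed the test. For that contrast edgeR called 0 genes in the whole table, where 510 had p under 0.05 before adjustment, against 1 call with DESeq2 and 0 with limma-voom. Genes 1, 2 and 5 had an unadjusted p under 0.05 (percent called 1.25 for lower genes), and they were also the 3 whose copper libraries all exceeded the mixture libraries (percent called 1.64). The 95% intervals of mixture over copper were 0.371 to 0.932 for gene 1, 0.261 to 0.920 for gene 2 and 0.433 to 0.969 for gene 5, and those of the other 9 genes included 1. The sources used here do not say whether the mixture held as much copper as the copper treatment.

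The same contrast on earlier days compares other libraries, with p-values that again rest on the spread fitted over all 48 libraries and so are not independent of the choice of the genes. Genes that shared their order of libraries on day 4 cannot be taken as separate results here either. On day 1, copper exceeded arsenic in fitted level for 12 of 12 genes (48.6% of all tested genes), and on day 2 again for 12 of 12 (48.9%). The median log2 fold changes were 0.59 on day 1, 0.92 on day 2 and 1.82 on day 4. At an unadjusted p under 0.05, 7 of the 12 were higher on day 1 (percent called 1.85) and 8 on day 2 (1.64). After adjustment over all genes edgeR called 0 genes on either day. Unadjusted, 589 genes on day 1 and 465 on day 2 had p under 0.05. Neither DESeq2 nor limma-voom called a gene on these days (0 each).

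Gene 1 had 9.66, 8.31, 6.21 and 5.68 CPM in copper libraries of day 1, against 3.53, 4.01, 2.79 and 3.03 CPM in arsenic libraries of that day. On day 2 it had 23.3, 5.70, 13.97 and 14.12 CPM with copper and 5.62, 3.39, 7.78 and 9.23 CPM with arsenic. The metals were already apart on day 1, while on day 2 copper replicate 2 fell among the arsenic libraries. Gene 2 had 5.26 to 8.63 CPM with copper on day 1, against 0.620 to 3.62 CPM with arsenic, again without overlap. On day 2 it had 3.84 to 20.6 CPM with copper and 2.26 to 7.05 CPM with arsenic. Of the 12 genes, 4 (genes 1, 2, 4 and 5) had all copper libraries above all arsenic libraries on day 1 (percent called 0.866), and 0 did on day 2 (1.08).

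**Figure D5:**
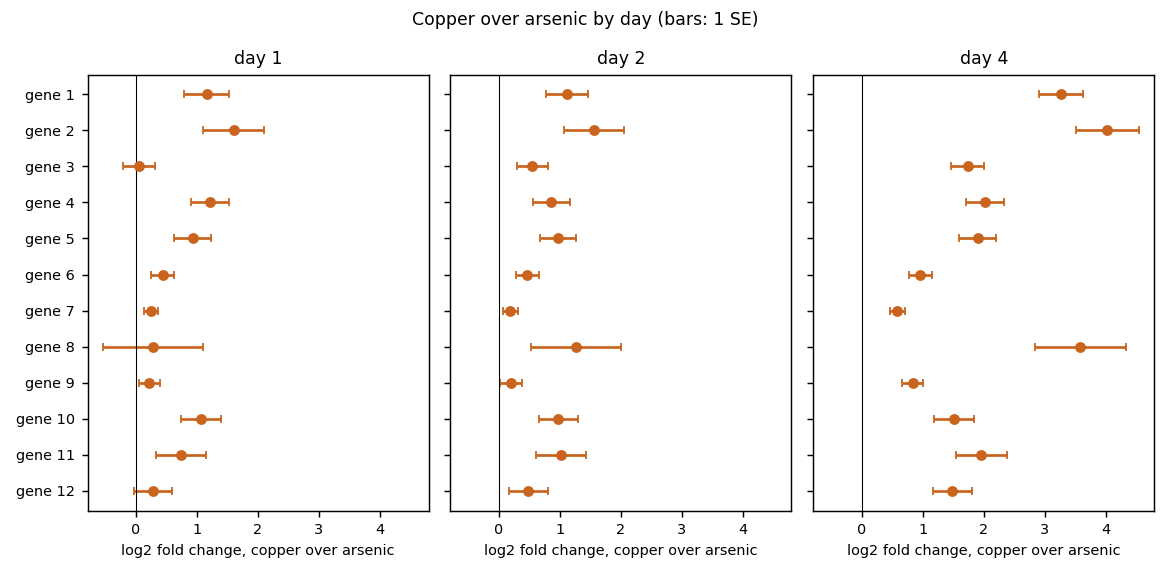
Log2 fold change of copper over arsenic (x axis) for the 12 genes (y axis) on days 1, 2 and 4, with bars of 1 SE. Points lie right of 0 on every day, and those of day 4 lie farthest right for each gene.

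Whether the gap between the metals was wider on day 4 was tested as the difference of the day-4 and earlier contrasts. The gap was wider on day 4 in fitted value for 12 of 12 genes against day 1 and for 12 of 12 against day 2, which the choice of the genes on day 4 favours. The share of all genes with a value above 0 was 49.1% for both. At an unadjusted p under 0.05, 8 of the 12 were wider than on day 1 (percent called 4.97) and 9 than on day 2 (2.35). EdgeR called 0 genes for either difference, and so did DESeq2 and limma-voom. In edgeR 1281 genes had an unadjusted p under 0.05 against day 1, and 647 against day 2. Gene 1 was wider by 2.105 on the log2 scale against day 1 (SE 0.50, adjusted p 0.371) and by 2.14 against day 2 (SE 0.49, adjusted p 0.955). For gene 2 the values were 2.42 (SE 0.70, adjusted p 0.603) and 2.47 (SE 0.68, adjusted p 0.955). A wider gap on day 4 was thus not established for any gene over the whole table.

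Group means of the genes below took different courses to day 4. Gene 3 averaged 40.9, 55.1 and 113 CPM with copper on days 1, 2 and 4, against 39.2, 37.5 and 33.8 CPM with arsenic. It did not differ on day 1 beyond its spread (log2 fold change 0.06, SE 0.26). Gene 4 averaged 90.7, 215 and 214 CPM with copper, against 38.8, 118 and 52.6 CPM with arsenic. Its copper mean was as high on day 2 (SD 103 CPM) as on day 4 (SD 22.6 CPM). Its arsenic mean was lower on day 4 than on day 2. Its control mean was lower on day 4 than on day 2 as well (49.8, 131 and 86.4 CPM on days 1, 2 and 4). Gene 10 averaged 182, 412 and 447 CPM with copper (SD 193 on day 2), against 86.4, 209 and 156 CPM with arsenic. It had the narrowest widening against day 1 relative to its SE (0.45, SE 0.45). These courses compare means of separate libraries and were not tested gene by gene.

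The libraries of days 1 and 2 are none of those in the day-4 contrast, though the fitted spread is shared. Copper exceeded control in fitted level for 10 of the 12 genes on day 1 (47.9% of all genes) and for 12 on day 2 (49.8%), with medians of 0.38 and 0.54 on the log2 scale. Arsenic was below control for 10 on day 1 (50.1%) and for 11 on day 2 (50.1%), with medians of −0.23 and −0.17. The mixture exceeded control for 10 genes on day 1 (49%), with a median of 0.09. On day 2 it was below control for 9 of the 12 (50.6%), with a median of −0.08. On day 4 the median was 0.70, and the difference between days was not tested for this comparison. None of the 12 genes passed the test in any of these 6 comparisons.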

How the data were processed

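RNA of whole bodies was sequenced in 48 libraries, 4 for each of control, copper, arsenic and mixture on days 1, 2 and 4. The deposited table gives each library a whole-number count for each gene. The submitters' processing notes name the tools TopHat2 2.1.1, HTSeq and edgeR without their roles, and the genome build, the annotation and strandedness were not given in the sources used here. Its name calls the table normalised; the values were taken as unscaled counts, since they were whole and their totals ran from 7.93 to 20.1 (in units of 1000000), with size factors of 0.612 to 1.53. Paralogs and overlapping genes, whose reads the counting could split, could not be picked out.

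A gene was tested with at least 14 counts (1 CPM at the median total, 13.3 in units of 1000000) in at least 4 libraries; 15813 passed and 253 did not. Counts were fitted with edgeR 4.0.16 in R 4.3.3 (TMM factors, 12 groups over 48 libraries, quasi-likelihood F test, two-sided, Benjamini-Hochberg within each comparison). Fold changes are fitted with a prior count of 0.125, and each SE is the log2 fold change divided by the square root of F. Intervals cover the fit, and floors cover counting error only. The scripts were tested on simulated counts. In 72 pairs of libraries of a group, chi-square per degree of freedom was 9.56 or more, so none was a duplicate. Same-numbered copper and arsenic libraries of day 4 did not deviate together. Alternatives were DESeq2 1.42.0, limma-voom 3.58.1, other scalings, filters and sets of libraries. Per direction the 2 called genes with the smallest p are given by identifier. The members, lists and rules were chosen with earlier results of these data known.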

Additional observations from a re-analysis of the deposited data

Results flagged for a closer look

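Among 56 day-4 groups of 4 libraries checked for a library far from the other 3 (12 genes, total counts and genes without a count), 5 had one; chance gives about 1 in 20 groups, or 2.8. Gene 7 was lowest in arsenic replicate 4 (43.8 CPM, against 47.8 to 48.2 in the other 3) and highest in mixture replicate 3 (69.2 CPM, against 59.3 to 60.4). Gene 8 was highest in mixture replicate 4 (3.27 CPM, against 1.26 to 1.56) and in control replicate 1 (1.79 CPM, against 0.260 to 0.346), which is 1 of the 3 libraries set apart. Control replicate 2 had the highest total of the controls, 15.8 in units of 1000000.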

How the results depend on the processing

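The 12 genes higher with copper than with arsenic on day 4 became 27 with DESeq2, 39 (34 higher, 5 lower) in a fit of the day-4 libraries alone and 51 (43 higher, 8 lower) in a fit of the 8 copper and arsenic libraries alone. These fits held 11, 12 and 12 of the 12 genes. Leaving out 1 library gave 5 to 18. With library totals in place of TMM, an alternative chosen after seeing the data, the median of all genes shifted to −0.10 on the log2 scale, and 14 genes were called, 13 higher and 1 lower. No reported fold change of the 12 genes reversed.

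Copper against control (11 genes, 3 higher and 8 lower) gave 17 with no filter, 5 with the replicate block, 1 without the 3 libraries set apart, 4 in day-4 libraries alone, 2 with limma-voom (the last 3 all higher), and 4 to 13 leaving out 1 library. Arsenic against control (10) gave 5 with the block, 1 without the 3 libraries, 0 in day-4 libraries alone (1820 at an unadjusted p under 0.05), 1 with limma-voom, and 2 to 11. Mixture against control (2) gave 1 with the block, 0 without the 3 libraries, 6 with DESeq2, and 0 to 8, with 0 without control replicate 1. Mixture against arsenic (3) gave 5 with library totals, 22 in day-4 libraries alone, 23 with DESeq2, and 1 to 6. Mixture against copper (0) gave 1 with DESeq2 and 0 to 1. Copper against arsenic gave 0 to 0 on day 1 and 0 to 2 on day 2, both extra calls without arsenic replicate 4 of day 2. The gap of day 4 against day 2 gave 0 to 1, without the same library, and against day 1 0 to 0. The cause of these shifts was not tested.

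The replicate block left 9 genes in copper against arsenic on day 4, 8 of them among the 12. For pairing, the deviation of each library from its group mean (log2 CPM) was taken gene by gene and correlated across genes. Same-numbered copper and arsenic libraries of day 4 had r of −0.164 to −0.046 in these deviations, against −0.163 to 0.169 for other pairings. By this measure no copper library of day 4 correlated best with its own number. On day 1 the highest r of such deviations, 0.236, was that of copper replicate 3 with arsenic replicate 3. Whether same-numbered libraries share a batch or culture is not given in the sources used here and was not tested.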

Other observations

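Other fits called further genes in copper against arsenic on day 4, most of them higher with copper. The fit of day-4 libraries alone added 22 genes that were higher with copper, and for all 22 the control mean lay between arsenic and copper, while the mixture exceeded control for 19. Of the 5 genes it called lower with copper, the control mean lay between the metals for 4, and the mixture was below control for 5. DESeq2 added 16 genes, with control between the metals for 16 and the mixture above control for 13. The fit of the 8 copper and arsenic libraries alone added 31 higher genes, with control between the metals for 28 and the mixture above control for 23, and 8 lower genes, with control between for 7 and the mixture below control for 8. Over all tested genes the control mean lay between the metals for 38.7%, and the mixture mean exceeded the control mean for 48.1%. These genes were picked with the copper and arsenic libraries, which favours a control mean between the metals, so the counts describe them. The 8-library fit took no spread from mixture or control libraries; the other fits did.

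Genes 5 and 11 carry consecutive identifier numbers, and so do gene 2 and the gene at rank 17. What the numbering follows is not given in the sources used here, and whether these pairs share reads was not tested. The gene at rank 17 had 293 to 412 CPM with copper and 94.6 to 194 CPM with arsenic, with 142 to 343 CPM in controls, so its controls overlapped both metals, unlike those of gene 2.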
